A study of Mus musculus with 9 samples.

Results

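The genes described here encode the lysosome of macrophages: 39 hydrolases, membrane proteins, proton pump subunits and their transcription factors, with lysozyme and cystatin C. They were listed by gene symbol for their role, with earlier results of these data known, and 38 of the 39 have a row among the 15434 genes of the table; Ctsb was not analysed here. All 38 passed the filter on low values. RNA was sequenced from macrophages sorted out of 3 organs of C57BL/6J mice, and there are 3 libraries each for testis, epididymis (the duct in which sperm mature) and brain, where the cells are microglia. No group was treated, cultured or genetically altered, and age is not given in the sources used here. Every group went through the same 40 minutes of enzyme digestion and the same sort for live CD45+ Ly6c- CD11c- CD11b+ F4/80+ cells, and 10 ng of RNA went into each library. Mouse number 1 is given for all testis libraries, 2 for all epididymis libraries and 3 for all brain libraries, so organ and mouse number cannot be told apart. The p-values thus rest on the spread among 3 libraries per organ, and that spread may be technical. One sentence of the protocol speaks of pooling testis and epididymis suspensions, and whether any library holds cells of both organs is not given in the sources used here.

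Lysosomes are acidic compartments in which macrophages break down what they engulf and what autophagy delivers. Cathepsins and legumain cut proteins there, glycosidases strip sugars from glycolipids and glycoproteins, and saposins cut from prosaposin present lipids to their hydrolases. The V-ATPase, a membrane pump, acidifies the lumen, and heavily glycosylated membrane proteins such as LAMP1 line the boundary. TFEB and TFE3, of the MiT/TFE family, activate many of these genes together through a palindromic promoter sequence called the CLEAR element, and mTORC1 on the lysosomal surface holds both factors in the cytoplasm when nutrients are plentiful.

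Each value is a normalised read count: the reads assigned to a gene, divided by the authors' factor for the library. Libraries held 2727092 to 4458688 such reads. Testis replicate 1 and epididymis replicate 3 stood apart from the other 7 libraries on the third principal component, so each call below that was lost without both is named. Correlations of log2(normalised reads + 1) over tested genes were 0.695 to 0.760 within testis, 0.676 to 0.698 within epididymis and 0.787 to 0.832 within brain. Epididymis libraries correlated at 0.635 to 0.703 with brain and 0.617 to 0.687 with testis, ranges that overlap the one within epididymis. Macrophage markers were present in every library, with a summed level of 13223 to 15325 normalised reads over 8 genes in testis, 26636 to 30314 in epididymis and 44489.9 to 49272 in brain. The sum, carried mostly by Csf1r and Cx3cr1, was lowest in testis, where Itgam, Csf1r, Mertk and Cx3cr1 passed as lower than in epididymis and than in brain. Ptprc, which encodes CD45, passed as higher in testis than in brain (means 2805 and 1622). Adgre1, which encodes the sorted F4/80 (means 191 and 71.7), and Cd14 (268 and 55.8) also lay higher in all testis than in all brain libraries without passing. The Cd14 mean was highest in testis, against 117 in epididymis. All 8 microglial markers passed as higher in brain than in testis and 6 as higher in brain than in epididymis. Leydig cell markers, of the steroid-producing cells of the testis, summed over 7 genes to 1432 to 3752 in testis, 29.1 to 201 in epididymis and 75.8 to 105 in brain, with Cyp17a1 at 0 in every epididymis and brain library and Insl3 at 0 in every epididymis library. T and NK cell markers over 7 genes summed to 763 to 1147, 65.5 to 162 and 57.4 to 154 in the same order, and spermatid markers over 6 genes to 743 to 1812, 422 to 692 and 4.44 to 32.8. Epididymal epithelium markers over 8 genes were highest in epididymis, as the lysosomal sum was, at 470.1 to 625 against 0 to 42.0 in testis and 0 in every brain library; 2 of the 3 tested passed as lower in testis, and Defb20 was at 0 in every testis library. Neutrophil markers over 5 genes summed to 0 to 9.40 in testis, 52.8 to 105 in epididymis and 373 to 665 in brain. Csf3r carried most of that sum in epididymis (mean 74.1), where S100a8 and S100a9 had means of 3.13 and 1.52. In brain the means of Csf3r, S100a8 and S100a9 were 260, 85.3 and 104. Immediate early and dissociation genes summed over 20 genes to 189648 to 200509 in testis, 68709 to 73812 in epididymis and 86533 to 139286 in brain, and 16 of the 20 passed as higher in testis than in epididymis. The part of these differences in the lysosomal values was not tested. In such bulk libraries, fewer cells of a type and less RNA per cell cannot be told apart.

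Lysosomal genes that differed were lower in testicular than in epididymal macrophages, and went both ways against microglia. Of the 38 genes, 8 passed the test in testis against epididymis and all 8 were lower in testis: Grn, Ctsd, Scarb2, Lamp1, Ctsz, Ctss, Man2b1 and Hexa. That is 21.1% of the genes against 4.39% of all 11766 tested genes, of which 1.9% were lower and 2.49% higher in testis. The median log2 difference was -0.74 over the 38 genes and 0.10 over all tested genes, and 31 of the 38 lay below 0. All 3 testis libraries lay below all 3 epididymis libraries for 17 genes and above them for 1, Gla, while over all tested genes 8.8% were apart in the first direction and 11% in the second, 19.8% together. The test was limma on log2(normalised reads + 1), adjusted by the Benjamini-Hochberg method over all tested genes, with a call at an adjusted p below 0.05, and every log2 difference below is on that scale.

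**Figure D1:**
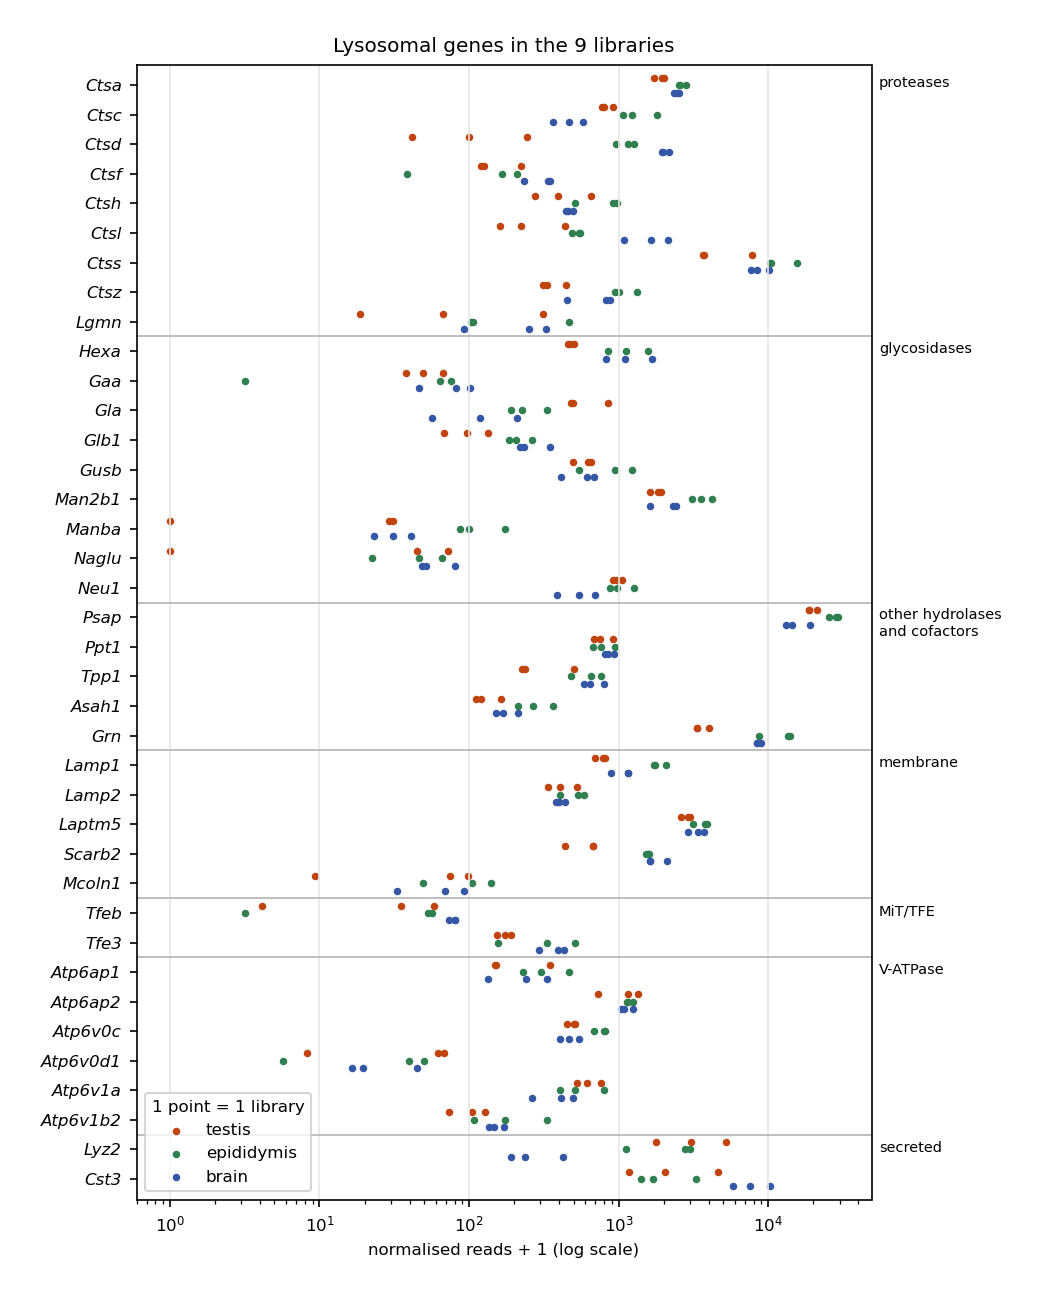
Normalised reads + 1 (horizontal, log scale) of 38 lysosomal genes (rows, grouped by role) in testis (orange), epididymis (green) and brain (blue), 1 point per library. Psap and Ctss lie at the right in every organ, and the testis points of Ctsd, Grn and Scarb2 lie to the left of all epididymis and brain points.

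In testis against brain 14 of the 38 passed, 4 higher in testis (Lyz2, Gla, Neu1 and Ctsc) and 10 lower (Ctsd, Ctsl, Scarb2, Grn, Hexa, Cst3, Tpp1, Glb1, Ctss and Ctsz). The share of 36.8% stands beside 11.7% of all tested genes, of which 6.82% were higher and 4.83% lower in testis. The median log2 difference was -0.51 over the lysosomal genes and -0.07 over all tested genes. Libraries of the 2 organs were apart for 5 genes higher and 15 lower in testis, against 15.9% and 14.9% of all tested genes (30.8% together). In epididymis against brain 8 passed, 6 higher in epididymis (Lyz2, Ctsc, Psap, Man2b1, Lamp1 and Neu1) and 2 lower (Cst3 and Ctsl), or 21.1% beside 4.79% of all tested genes (2.99% higher, 1.8% lower). The medians there were 0.30 and -0.13, and 11 genes were apart upward and 6 downward, against 10.5% and 11.5% of all tested genes (22% together). The 3 comparisons share libraries, so their counts are not independent of each other. The shares over all tested genes include many low genes and were not matched by level. With a stricter filter on low values, 8 of 37 lysosomal and 475 of all 8174 tested genes passed in testis against epididymis. That filter gave 14 and 1301 in testis against brain, and 8 and 558 in epididymis against brain.

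Scaling bears on these directions. With libraries rescaled to equal totals, the median of all genes moved from 0.10 to -0.05 in testis against epididymis and from -0.07 to -0.29 in testis against brain, and the lysosomal medians moved with it to -0.91 and -0.74. The split of all called genes then turned from 293 higher and 223 lower to 227 and 307 in testis against epididymis (223 and 256 under quantile normalization), and from 803 and 568 to 655 and 770 in testis against brain. Among lysosomal genes the called split in testis against epididymis stayed one-sided at 11 lower, in testis against brain it became 2 higher and 13 lower (2 and 11 under quantile normalization), and in epididymis against brain 3 higher and 2 lower, also under TMM scaling. With only the 6 libraries compared in the fit, the split in epididymis against brain turned from 6 higher and 2 lower to 2 higher and 3 lower. Without a variance trend in limma, Ctsd alone still passed in testis against epididymis, Lyz2 alone in epididymis against brain, and Ctsd, Lyz2, Ctsl, Scarb2 and Gla in testis against brain. No called lysosomal gene changed sign under any alternative.

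**Figure D2:**
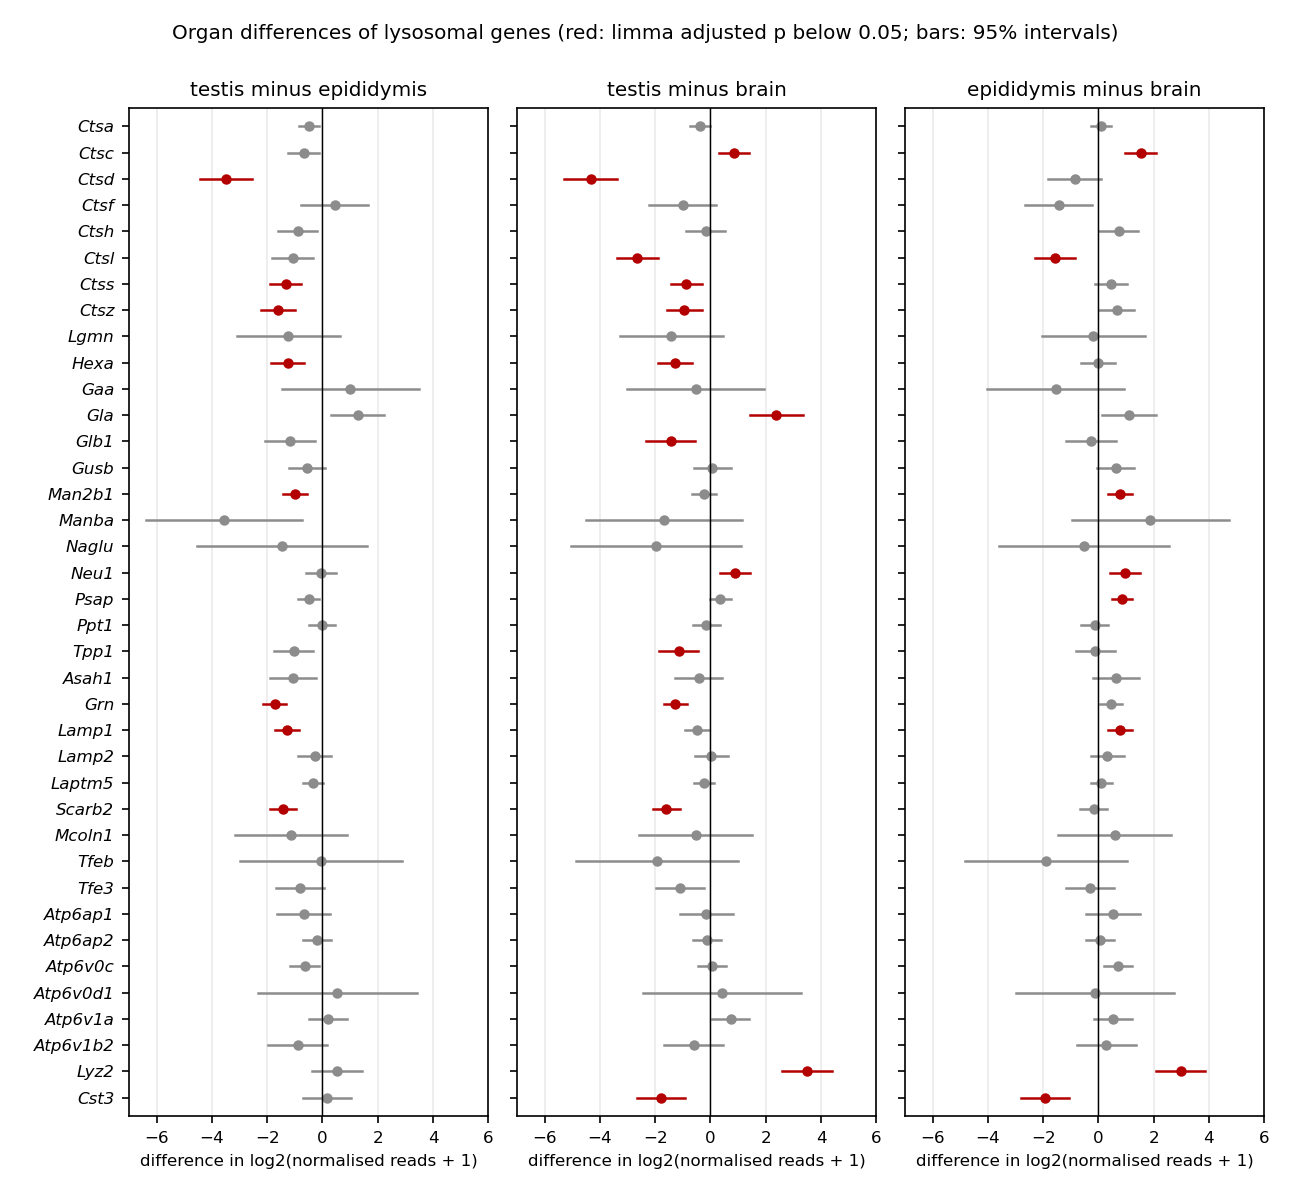
Difference in log2(normalised reads + 1) between organs (horizontal) for 38 lysosomal genes (rows), with limma's 95% intervals as bars and adjusted p below 0.05 in red. All 8 red genes lie left of 0 in testis minus epididymis, 10 of 14 in testis minus brain and 2 of 8 in epididymis minus brain.

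The read share of the whole set was lowest in testis. The 38 genes together took 1.45% of reads in testis (SD 0.163, n = 3), 2.67% in epididymis (SD 0.184, n = 3) and 2.15% in brain (SD 0.254, n = 3). In normalised reads the sum was 47306 to 58234 in testis, 79651 to 90501 in epididymis and 58084 to 75526 in brain. Psap alone stood at 19629, 27719 and 15484 normalised reads on average in testis, epididymis and brain. By gene, the highest organ mean was in epididymis for 21 of the 38, in brain for 13 and in testis for 4, against 29.4%, 33.7% and 36.9% of all tested genes. The lowest mean was in testis for 25, in brain for 10 and in epididymis for 3, against 34.8%, 35.6% and 29.6% of all tested genes. The most frequent order was epididymis highest and testis lowest, in 15 genes, followed by brain highest and testis lowest, in 10.

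**Figure D3:**
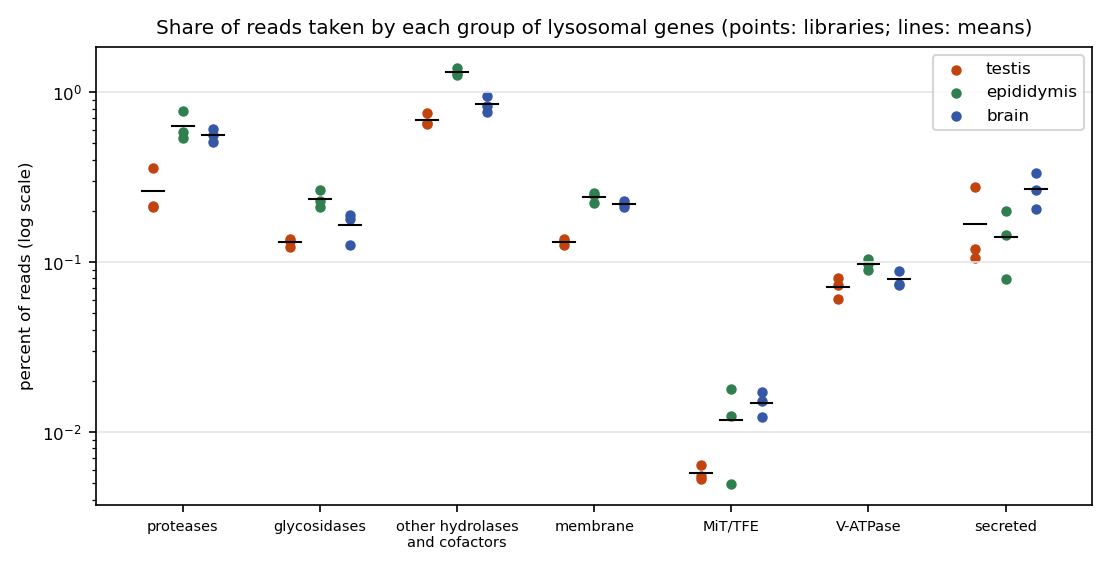
Percent of each library's reads (vertical, log scale) taken by the 7 role groups (horizontal), with 1 point per library and the organ mean as a line. The protease, glycosidase, other hydrolase and cofactor, membrane protein and V-ATPase groups each have the 3 testis points below the epididymis points. In the MiT/TFE and secreted groups the testis and epididymis points overlap.

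Stretches before 3 genes are shown. Ctsd and Lamp1 were picked because they hold CACGTG and were lower in testis than in epididymis. Grn was picked because it holds no CACGTG and had the smallest limma adjusted p of the set in testis against epididymis. CACGTG is only the middle part of the CLEAR element. Windows were placed by RefSeq start sites on GRCm38.p6, and in 27 of 43 the bases before that site reach into the gene as GENCODE M21 draws it, among them 211 of 250 in Ctsd, 192 in Grn and 120 in Gla, but none in Lamp1. Only bases outside GENCODE exons are printed, 5′ to 3′ on the gene's strand: 39 for Ctsd at chr7:142388039-142388077 (minus strand), 250 for Lamp1 at chr8:13158911-13159160 (plus strand) and 58 for Grn at chr11:102430257-102430314 (plus strand). Capitals mark CACGTG with its longer form GTCACGTG on either strand.
Ctsd: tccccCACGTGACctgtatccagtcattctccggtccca
Lamp1: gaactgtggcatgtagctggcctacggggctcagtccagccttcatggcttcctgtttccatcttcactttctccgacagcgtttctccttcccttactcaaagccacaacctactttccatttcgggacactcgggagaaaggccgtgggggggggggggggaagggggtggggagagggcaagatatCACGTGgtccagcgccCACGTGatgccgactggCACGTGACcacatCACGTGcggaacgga
Grn: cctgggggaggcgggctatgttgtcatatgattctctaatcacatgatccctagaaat
Positions of the first base of CACGTG, counted from -1 just before the RefSeq start site, were -245 and -98 in Ctsd, of which -98 lies inside the GENCODE first exon, and -61, -45, -28 and -15 in Lamp1. In Gla, higher in testis than in brain, they were -227 and -194, where exon bases of Hnrnph2, on the opposite strand, also lie.

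Windows of 250 bases before to 50 after a start site were found for 35 of the 38 genes, 43 windows in all, but not for Ctsh, Asah1 and Atp6v1b2. CACGTG, a palindrome, occurred in 13 of the 43 windows (30.2%), against 9.53% of 11440 windows of tested genes and 7.15% of all 32851 windows. GTCACGTG, searched on both strands and containing CACGTG, occurred in 9 (20.9%), against 3.99% and 2.25%. TCACGTGA, also a palindrome around the same core, occurred in 6 (13.95%), against 1.8% and 0.974%. The longest form searched, GTCACGTG completed to a palindrome around the core, is the full CLEAR element. It occurred in 0 of the 43, against 0.629% and 0.326%. At so low a share elsewhere, its absence from 43 windows does not show depletion, and the higher shares above hold for the shorter forms only. The genes with the core were Ctsa, Ctsd, Ctsf, Ctsl, Lgmn, Gaa, Gla, Glb1, Naglu, Lamp1, Mcoln1, Atp6v0d1 and Atp6v1a. GAGGAAGT, a form bound by the macrophage factor PU.1, occurred on either strand in 4 windows (9.30%), those of Ctsc, Ctss, Gla and Gusb, against 3.19% and 3.20%. Of the 8 genes lower in testis than in epididymis 2 held CACGTG, and of the 27 with a window that did not pass there 11 held it. A match describes these letters only.

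Among the proteases, 3 of 9 passed as lower in testis than in epididymis, against 1.9% of all tested genes. In testis against brain 4 were lower and 1 higher in testis, against 4.83% and 6.82%. In epididymis against brain 1 passed each way, against 2.99% higher and 1.8% lower of all tested genes. All coordinates are from GENCODE M21 on GRCm38. Ctsd (chromosome 7, 142375911 to 142388038, minus strand) encodes cathepsin D, the main aspartic protease of the lysosome. Ctsd had 40.4, 98.6 and 243 normalised reads in the testis libraries, 1265, 1146 and 958 in epididymis and 1974, 1936 and 2169 in brain. The 3 organs did not overlap, with testis lowest and brain highest. Ctsd passed the limma test with a log2 difference of -3.48 for testis minus epididymis (SE 0.45, 95% interval -4.43 to -2.53, adjusted p = 0.00041) and -4.34 for testis minus brain (SE 0.45, 95% interval -5.29 to -3.39, adjusted p = 8.8e-06). Ctsd did not pass with -0.86 for epididymis minus brain (adjusted p = 0.37). Exons of Gm49369 on the same strand overlap 808 bases of Ctsd, and how shared reads were counted is not given in the sources used here. Ctsl (chromosome 13, 64359337 to 64370890, minus strand) encodes cathepsin L, a cysteine endopeptidase. Ctsl had 159, 221 and 437 normalised reads in the testis libraries, 547, 538 and 486 in epididymis and 1087, 1634 and 2129.6 in brain. Organs were again apart, in the order testis, epididymis, brain. Ctsl passed the limma test with a log2 difference of -2.64 for testis minus brain (SE 0.35, 95% interval -3.38 to -1.90, adjusted p = 0.0001) and -1.57 for epididymis minus brain (SE 0.35, 95% interval -2.31 to -0.83, adjusted p = 0.014). Ctsl did not pass with -1.07 for testis minus epididymis (adjusted p = 0.11). The Ctsl call in epididymis against brain was lost without epididymis replicates 1, 2 or 3 or brain replicates 2 or 3 (adjusted p = 0.051 to 0.083).

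Ctss (chromosome 3, 95526786 to 95556403, plus strand) encodes cathepsin S, a cysteine protease that trims the invariant chain for antigen presentation. Ctss had 3634, 3723 and 7818 normalised reads in the testis libraries, 15546, 10268 and 10493 in epididymis and 8390.3, 7690.4 and 10069 in brain. Every testis library lay below every epididymis library, while testis replicate 3 lay above the lowest brain library. Ctss passed the limma test with a log2 difference of -1.33 for testis minus epididymis (SE 0.27, 95% interval -1.89 to -0.76, adjusted p = 0.0096) and -0.87 for testis minus brain (SE 0.27, 95% interval -1.44 to -0.31, adjusted p = 0.045). Ctss did not pass with 0.46 for epididymis minus brain (adjusted p = 0.44). The Ctss call in testis against epididymis was lost without testis replicates 1 or 2 or epididymis replicate 1 (adjusted p = 0.054 to 0.066), and with both stand-apart libraries left out (adjusted p = 0.12). The Ctss call in testis against brain was lost without testis replicates 1 or 2 or epididymis replicates 2 or 3 or brain replicates 1, 2 or 3 (adjusted p = 0.062 to 0.20), and with both stand-apart libraries left out (adjusted p = 0.24). Ctsz (chromosome 2, 174427493 to 174439039, minus strand) encodes cathepsin Z, a carboxypeptidase. Ctsz had 330.3, 312 and 444 normalised reads in the testis libraries, 1326, 1008 and 949 in epididymis and 872, 451 and 823 in brain. No organs overlapped: testis was lowest and epididymis highest. Ctsz passed the limma test with a log2 difference of -1.60 for testis minus epididymis (SE 0.29, 95% interval -2.21 to -0.98, adjusted p = 0.0048) and -0.94 for testis minus brain (SE 0.29, 95% interval -1.56 to -0.32, adjusted p = 0.048). Ctsz did not pass with 0.66 for epididymis minus brain (adjusted p = 0.27). The Ctsz call in testis against epididymis was lost with both stand-apart libraries left out (adjusted p = 0.058). The Ctsz call in testis against brain was lost without testis replicates 1 or 2 or epididymis replicates 1, 2 or 3 or brain replicates 1 or 3 (adjusted p = 0.055 to 0.21), and with both stand-apart libraries left out (adjusted p = 0.13). Ctsc (chromosome 7, 88278085 to 88310888, plus strand) encodes cathepsin C, which activates serine proteases by removing dipeptides. Ctsc had 779, 792 and 922 normalised reads in the testis libraries, 1798, 1229 and 1062 in epididymis and 465, 577 and 362 in brain. Here brain was lowest and epididymis highest, with testis between and no overlap. Ctsc passed the limma test with a log2 difference of 0.85 for testis minus brain (SE 0.26, 95% interval 0.30 to 1.40, adjusted p = 0.045) and 1.53 for epididymis minus brain (SE 0.26, 95% interval 0.98 to 2.08, adjusted p = 0.0026). Ctsc did not pass with -0.68 for testis minus epididymis (adjusted p = 0.18). The Ctsc call in testis against brain was lost without testis replicates 1, 2 or 3 or epididymis replicate 2 or brain replicates 1 or 3 (adjusted p = 0.062 to 0.16), and with both stand-apart libraries left out (adjusted p = 0.074).

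The other 4 proteases did not pass in any comparison with all 9 libraries in the fit. Ctsa lay at 1715 to 2009.5 normalised reads in testis, 2520.0 to 2804 in epididymis and 2352 to 2531 in brain, and encodes the protective protein of neuraminidase 1. Ctsh lay at 274 to 649 normalised reads in testis, 512 to 971 in epididymis and 445 to 493 in brain, with testis replicate 3 above the lowest epididymis library. Ctsf lay at 119 to 221 normalised reads in testis, 37.7 to 207 in epididymis and 231 to 344 in brain, all brain libraries being the highest. Ctsf and Ctsh encode cysteine cathepsins, the latter an aminopeptidase. Legumain, which cuts after asparagine and matures other cathepsins, spread widely: Lgmn had 66.3, 17.8 and 311 normalised reads in the testis libraries, 468, 101 and 106 in epididymis and 249.6, 91.4 and 326 in brain. Over these genes and the others of the group that did not pass, log2 differences spanned -1.23 to 0.44 in testis minus epididymis and -1.42 to -0.17 in testis minus brain.

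**Figure D4:**
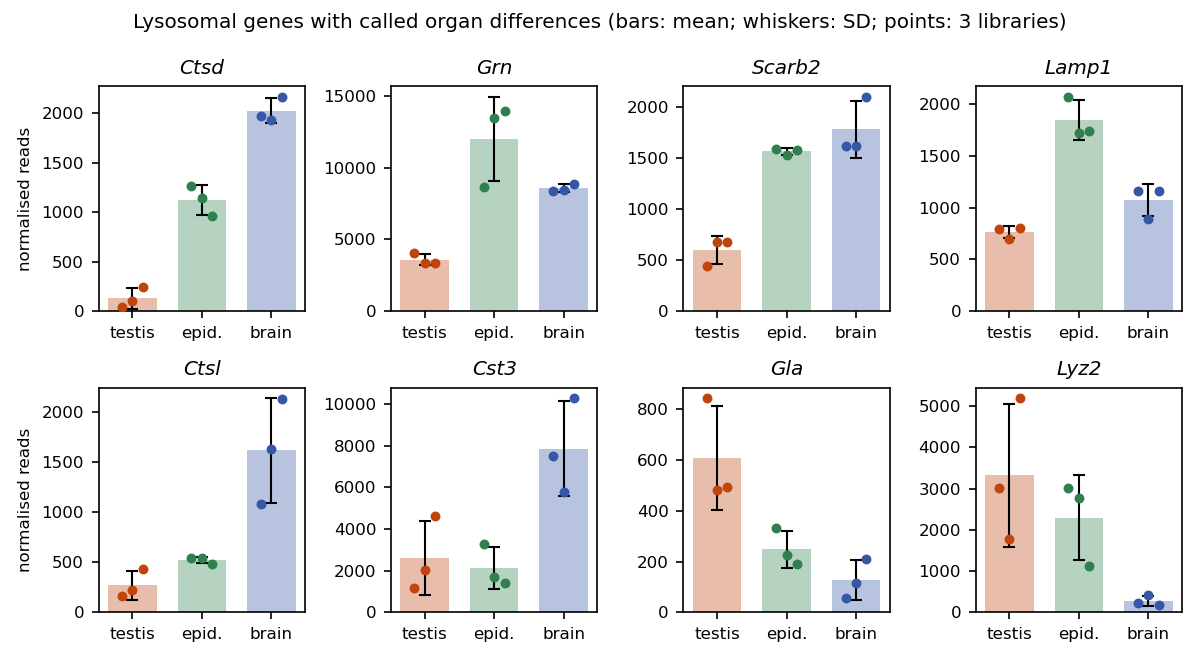
Normalised reads (vertical, linear from 0) of 8 lysosomal genes in testis, epididymis and brain: bars are means, whiskers the SD of 3 libraries and points the libraries. Testis is below both other organs for Ctsd, Grn, Scarb2 and Lamp1 and above both for Gla, while brain is above both for Ctsl and Cst3 and below both for Lyz2.

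Glycosidases split by direction. Of 9, 2 were lower in testis than in epididymis, against 1.9% of all tested genes. In testis against brain 2 were higher and 2 lower in testis, against 6.82% and 4.83%. In epididymis against brain 2 were higher in epididymis, against 2.99% of all tested genes. Hexa (chromosome 9, 59539540 to 59565109, plus strand) encodes the alpha subunit of beta-hexosaminidase, which degrades GM2 ganglioside. Hexa had 470.0, 454 and 502 normalised reads in the testis libraries, 1566, 848 and 1114 in epididymis and 1107, 819 and 1674 in brain. Testis lay below both other organs, which overlapped. Hexa passed the limma test with a log2 difference of -1.26 for testis minus epididymis (SE 0.29, 95% interval -1.87 to -0.65, adjusted p = 0.020) and -1.27 for testis minus brain (SE 0.29, 95% interval -1.88 to -0.66, adjusted p = 0.0083). Hexa did not pass with -0.01 for epididymis minus brain (adjusted p = 1.00). The Hexa call in testis against epididymis was lost without testis replicates 1, 2 or 3 or epididymis replicates 1 or 3 (adjusted p = 0.052 to 0.087), and with both stand-apart libraries left out (adjusted p = 0.13). Man2b1 (chromosome 8, 85083270 to 85098282, plus strand) encodes lysosomal alpha-mannosidase. Man2b1 had 1820.1, 1932 and 1627 normalised reads in the testis libraries, 3564, 3110.3 and 4188 in epididymis and 2430.0, 1621 and 2294 in brain. Epididymis lay above the other two organs, which overlapped. Man2b1 passed the limma test with a log2 difference of -1.01 for testis minus epididymis (SE 0.20, 95% interval -1.44 to -0.57, adjusted p = 0.0098) and 0.79 for epididymis minus brain (SE 0.20, 95% interval 0.35 to 1.22, adjusted p = 0.036). Man2b1 did not pass with -0.22 for testis minus brain (adjusted p = 0.58). The Man2b1 call in testis against epididymis was lost without epididymis replicate 3 (adjusted p = 0.056), and with both stand-apart libraries left out (adjusted p = 0.11). The Man2b1 call in epididymis against brain was lost without testis replicate 2 or epididymis replicates 1, 2 or 3 or brain replicates 1 or 2 (adjusted p = 0.053 to 0.18), and with both stand-apart libraries left out (adjusted p = 0.15).

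Gla (chromosome X, 134588149 to 134601125, minus strand) encodes alpha-galactosidase A, which removes galactose from globotriaosylceramide. Gla had 843, 482 and 493 normalised reads in the testis libraries, 331, 225 and 191 in epididymis and 55.6, 117 and 209 in brain. All testis libraries were above all others, and the lowest epididymis library was below the highest brain library. Gla passed the limma test with a log2 difference of 2.39 for testis minus brain (SE 0.46, 95% interval 1.42 to 3.36, adjusted p = 0.0025). Gla did not pass with 1.27 for testis minus epididymis (adjusted p = 0.15) or 1.12 for epididymis minus brain (adjusted p = 0.22). Gla was thus the one gene of the 38 whose testis libraries lay above all epididymis libraries. Neu1 (chromosome 17, 34931253 to 34935953, plus strand) encodes neuraminidase 1, which removes sialic acid. Neu1 had 980.4, 1054 and 910.5 normalised reads in the testis libraries, 1264, 969 and 871 in epididymis and 545, 383 and 695 in brain. Brain lay below the overlapping testis and epididymis libraries. Neu1 passed the limma test with a log2 difference of 0.90 for testis minus brain (SE 0.26, 95% interval 0.35 to 1.44, adjusted p = 0.033) and 0.96 for epididymis minus brain (SE 0.26, 95% interval 0.41 to 1.50, adjusted p = 0.044). Neu1 did not pass with -0.06 for testis minus epididymis (adjusted p = 0.94). The Neu1 call in testis against brain was lost without testis replicates 1, 2 or 3 or brain replicates 1 or 2 (adjusted p = 0.063 to 0.15), and with both stand-apart libraries left out (adjusted p = 0.081). The Neu1 call in epididymis against brain was lost without testis replicates 1, 2 or 3 or epididymis replicates 1, 2 or 3 or brain replicates 1 or 2 (adjusted p = 0.053 to 0.20), and with both stand-apart libraries left out (adjusted p = 0.072). Glb1 (chromosome 9, 114401076 to 114474898, plus strand) encodes beta-galactosidase. Glb1 had 134, 95.3 and 66.7 normalised reads in the testis libraries, 183, 206 and 261 in epididymis and 230.4, 344 and 218 in brain. Testis lay below both other organs, which overlapped. Glb1 passed the limma test with a log2 difference of -1.44 for testis minus brain (SE 0.42, 95% interval -2.34 to -0.54, adjusted p = 0.037). Glb1 did not pass with -1.17 for testis minus epididymis (adjusted p = 0.15) or -0.27 for epididymis minus brain (adjusted p = 0.83). The Glb1 call in testis against brain was lost without testis replicates 2 or 3 or brain replicates 1, 2 or 3 (adjusted p = 0.069 to 0.17).

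The other 4 glycosidases did not pass in any comparison. Gusb lay at 492 to 651 normalised reads in testis, 542 to 1223 in epididymis and 411 to 682 in brain, and encodes beta-glucuronidase. The rest were low in every organ. Manba had 0, 29.9 and 28.2 normalised reads in the testis libraries, 98.2, 172 and 86.2 in epididymis and 40.1, 22.3 and 30.2 in brain. Manba, beta-mannosidase, was listed at 0 in testis replicate 1, and its 3 testis libraries lay below the epididymis libraries (log2 difference -3.56, 95% interval -6.39 to -0.73, limma adjusted p = 0.17). Naglu had 0, 43.6 and 71.0 normalised reads in the testis libraries, 64.5, 21.6 and 45.3 in epididymis and 79.2, 50.2 and 47.1 in brain. Naglu encodes a heparan sulfate glucosaminidase. Gaa lay at 36.8 to 66.3 normalised reads in testis, 2.16 to 74.5 in epididymis and 45.5 to 100.4 in brain. Gaa encodes acid alpha-glucosidase, which degrades glycogen.

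Progranulin and prosaposin bind each other and travel together to the lysosome, and here they took different orders. Grn (chromosome 11, 102430315 to 102437048, plus strand) encodes progranulin, a secreted and lysosomal precursor of granulins. Grn had 4026, 3328 and 3345 normalised reads in the testis libraries, 8625, 13450.5 and 13935 in epididymis and 8365, 8400.5 and 8882 in brain. All testis libraries lay below all others, and epididymis replicate 1 fell within the brain range. Grn passed the limma test with a log2 difference of -1.72 for testis minus epididymis (SE 0.19, 95% interval -2.14 to -1.31, adjusted p = 0.00016) and -1.27 for testis minus brain (SE 0.19, 95% interval -1.68 to -0.85, adjusted p = 0.00040). Grn did not pass with 0.46 for epididymis minus brain (adjusted p = 0.24). Psap (chromosome 10, 60277627 to 60302597, plus strand) encodes prosaposin. Psap had 21337, 18827 and 18723 normalised reads in the testis libraries, 29305, 28183 and 25668 in epididymis and 14329, 13166 and 18956 in brain. Epididymis lay above the other organs, and the highest brain library was above the lowest testis libraries. Psap passed the limma test with a log2 difference of 0.86 for epididymis minus brain (SE 0.18, 95% interval 0.48 to 1.23, adjusted p = 0.0095). Psap did not pass with -0.50 for testis minus epididymis (adjusted p = 0.14) or 0.36 for testis minus brain (adjusted p = 0.24). The Psap call in epididymis against brain was lost without epididymis replicate 2 or brain replicates 1 or 2 (adjusted p = 0.051 to 0.075), and with both stand-apart libraries left out (adjusted p = 0.066). Tpp1 (chromosome 7, 105744811 to 105752235, minus strand) encodes tripeptidyl peptidase 1. Tpp1 had 226, 237 and 505 normalised reads in the testis libraries, 649, 763 and 481 in epididymis and 581, 644 and 799.9 in brain. Testis lay below brain, while testis replicate 3 was above the lowest epididymis library. Tpp1 passed the limma test with a log2 difference of -1.15 for testis minus brain (SE 0.33, 95% interval -1.85 to -0.45, adjusted p = 0.033). Tpp1 did not pass with -1.04 for testis minus epididymis (adjusted p = 0.095) or -0.11 for epididymis minus brain (adjusted p = 0.92). The Tpp1 call in testis against brain was lost without testis replicates 1 or 2 or brain replicates 1, 2 or 3 (adjusted p = 0.068 to 0.12), and with both stand-apart libraries left out (adjusted p = 0.11). Ppt1 lay at 681 to 914 normalised reads in testis, 673 to 943 in epididymis and 804 to 925 in brain, and Asah1 at 111 to 163 normalised reads in testis, 210.0 to 361 in epididymis and 150.5 to 212 in brain. Ppt1 (palmitoyl-protein thioesterase 1) and Asah1 (acid ceramidase) did not pass in any comparison, and the testis minus epididymis difference of Ppt1 was -0.01 with a 95% interval of -0.50 to 0.47.

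Of the membrane proteins, Lamp1 and Scarb2 passed and Lamp2, Laptm5 and Mcoln1 did not. Lamp1 (chromosome 8, 13159161 to 13175338, plus strand) encodes a major glycoprotein of the lysosomal membrane. Lamp1 had 789.9, 693 and 804 normalised reads in the testis libraries, 2072, 1724 and 1741 in epididymis and 1156, 893 and 1162 in brain. The organs were apart, testis lowest and epididymis highest. Lamp1 passed the limma test with a log2 difference of -1.27 for testis minus epididymis (SE 0.21, 95% interval -1.71 to -0.83, adjusted p = 0.0020) and 0.79 for epididymis minus brain (SE 0.21, 95% interval 0.35 to 1.23, adjusted p = 0.038). Lamp1 did not pass with -0.48 for testis minus brain (adjusted p = 0.17). The Lamp1 call in epididymis against brain was lost without epididymis replicates 1, 2 or 3 or brain replicates 1, 2 or 3 (adjusted p = 0.053 to 0.17), and with both stand-apart libraries left out (adjusted p = 0.073). Scarb2 (chromosome 5, 92441314 to 92506833, minus strand) encodes LIMP-2, the receptor that carries glucocerebrosidase to lysosomes. Scarb2 had 439, 675 and 675 normalised reads in the testis libraries, 1594, 1531 and 1581 in epididymis and 1619, 1624 and 2105 in brain. The organs were apart, with testis lowest and the epididymis libraries close together just under brain. Scarb2 passed the limma test with a log2 difference of -1.42 for testis minus epididymis (SE 0.22, 95% interval -1.90 to -0.94, adjusted p = 0.0017) and -1.59 for testis minus brain (SE 0.22, 95% interval -2.07 to -1.12, adjusted p = 0.00018). Scarb2 did not pass with -0.17 for epididymis minus brain (adjusted p = 0.78). Lamp2 lay at 335 to 524 normalised reads in testis, 406 to 582 in epididymis and 379 to 438 in brain. The Lamp2 difference of testis minus epididymis, -0.28, had a 95% interval of -0.87 to 0.32, beside -1.71 to -0.83 for Lamp1. Laptm5 lay at 2622 to 3006 normalised reads in testis, 3149 to 3905 in epididymis and 2924 to 3735 in brain, and encodes a membrane protein of blood cell lysosomes. Mcoln1 had 8.28, 97.7 and 73.5 normalised reads in the testis libraries, 48.2, 103 and 139 in epididymis and 91.1, 68.0 and 32.0 in brain. Mcoln1, the lysosomal calcium channel TRPML1, was among the lowest genes of the set.

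Neither MiT/TFE transcription factor passed in any comparison. Tfeb had 3.11, 57.4 and 34.2 normalised reads in the testis libraries, 55.5, 52.5 and 2.16 in epididymis and 72.9, 79.1 and 80.0 in brain. In brain the 3 Tfeb values were close together and above all others, whereas testis replicate 1 and epididymis replicate 3, the libraries that stood apart, each held a few reads. Tfe3 had 188, 172 and 153 normalised reads in the testis libraries, 511, 333 and 155 in epididymis and 427, 291 and 395 in brain. All Tfe3 testis libraries lay below all brain libraries (log2 difference -1.10, 95% interval -1.97 to -0.22, limma adjusted p = 0.11), and with both stand-apart libraries left out that difference was -1.17 (adjusted p = 0.0498).

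The V-ATPase genes of the set, 4 pump subunits and 2 accessory proteins, did not pass in any comparison. Atp6v0c had 453, 499 and 508 normalised reads in the testis libraries, 684, 811 and 801 in epididymis and 465, 402 and 542 in brain. Atp6v0c, of the ring that carries protons, lay lower in all testis than in all epididymis libraries without passing (log2 difference -0.65, 95% interval -1.16 to -0.13, limma adjusted p = 0.17). Atp6v1a lay at 527 to 755 normalised reads in testis, 405 to 793 in epididymis and 260.5 to 495 in brain, and encodes the catalytic subunit. Atp6ap2 lay at 723 to 1336 normalised reads in testis, 1135 to 1248 in epididymis and 1040.1 to 1251 in brain, and encodes an accessory protein also known as the prorenin receptor. Atp6ap1 lay at 148 to 347 normalised reads in testis, 228 to 464 in epididymis and 133 to 329 in brain. Atp6v1b2 lay at 71.9 to 126 normalised reads in testis, 107 to 333 in epididymis and 134 to 171 in brain. Atp6v0d1 lay at 7.27 to 66.7 normalised reads in testis, 4.69 to 49.1 in epididymis and 15.6 to 43.7 in brain. Atp6ap1 encodes the other accessory protein, Atp6v1b2 a nucleotide-binding subunit and Atp6v0d1 a subunit joining the pump's sectors. Reads of Atp6v0c and Atp6ap2 are uncertain because pseudogenes nearly identical to parts of them exist. Log2 differences of the 6 spanned -0.89 to 0.54 in testis minus epididymis.

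Other subunits of the pump did pass. Of 12 further V-ATPase genes tested, 2 were lower in testis than in epididymis and 4 lower in testis than in brain, with none higher in either. Of all tested genes, 1.9% and 4.83% were lower in testis in these comparisons. In epididymis against brain 0 of the 12 passed by limma, against 4.79% of all tested genes. There 0 also had an unadjusted p below 0.05, against 1925 of all 11766 tested genes. Tcirg1 had 1254, 674 and 496 normalised reads in the testis libraries, 2064, 1595 and 3001 in epididymis and 1849, 1813 and 1729 in brain. Tcirg1, the a3 subunit of the membrane sector, was lower in testis than in epididymis (log2 difference -1.52, SE 0.30, adjusted p = 0.0094) and than in brain (-1.26, SE 0.30, adjusted p = 0.012), by limma. Atp6v0a1 had 31.1, 108 and 156 normalised reads in the testis libraries, 225, 352 and 377 in epididymis and 309, 305 and 381 in brain. Atp6v0a1, the a1 subunit, was likewise lower than in epididymis (-1.93, SE 0.51, adjusted p = 0.046) and brain (-2.01, SE 0.51, adjusted p = 0.018). Atp6v0a2 was lower in testis than in brain (-2.09, SE 0.63, adjusted p = 0.043), and so was the proteolipid subunit gene Atp6v0b, the fourth (-1.03, SE 0.25, adjusted p = 0.015). For Tcirg1 the call in testis against epididymis was lost without testis replicate 2 or epididymis replicate 3 (adjusted p = 0.055 to 0.060). For Atp6v0a1 the call in testis against epididymis was lost without testis replicates 1 or 2 or epididymis replicates 1, 2 or 3 or brain replicates 1, 2 or 3 (adjusted p = 0.066 to 0.14) and with both stand-apart libraries left out (adjusted p = 0.19). For Tcirg1 the call in testis against brain was lost without testis replicates 2 or 3 or brain replicate 1 (adjusted p = 0.054 to 0.066). For Atp6v0a1 the call in testis against brain was lost without brain replicates 1, 2 or 3 (adjusted p = 0.055 to 0.073). For Atp6v0a2 the call in testis against brain was lost without testis replicate 1 or epididymis replicates 1 or 3 or brain replicates 1, 2 or 3 (adjusted p = 0.056 to 0.15) and with both stand-apart libraries left out (adjusted p = 0.13). For Atp6v0b the call in testis against brain was lost without testis replicate 3 or brain replicates 1 or 3 (adjusted p = 0.056 to 0.074). Without a variance trend none of these 6 calls passed (adjusted p = 0.10 to 0.21).

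Lysozyme and cystatin C separated brain from the other organs in opposite directions. Lyz2 (chromosome 10, 117277331 to 117282321, minus strand) encodes macrophage lysozyme, which cuts bacterial cell walls. Lyz2 had 3023, 1768 and 5189 normalised reads in the testis libraries, 3008, 2767 and 1120.2 in epididymis and 236, 426 and 189 in brain. All brain libraries lay far below the testis and epididymis libraries, which overlapped. Lyz2 passed the limma test with a log2 difference of 3.50 for testis minus brain (SE 0.42, 95% interval 2.61 to 4.39, adjusted p = 3.8e-05) and 2.97 for epididymis minus brain (SE 0.42, 95% interval 2.08 to 3.87, adjusted p = 0.00057). Lyz2 did not pass with 0.52 for testis minus epididymis (adjusted p = 0.57). Its near copy Lyz1, 95.8% identical over 1264 aligned bases, had 1.04, 33.9 and 29.9 normalised reads in testis, 0.909, 0.938 and 48.5 in epididymis and 0.911, 0 and 0 in brain, so reads shared between both genes are uncertain. Cst3 (chromosome 2, 148871722 to 148875692, minus strand) encodes cystatin C, a secreted inhibitor of cysteine cathepsins. Cst3 had 1173, 2029 and 4617 normalised reads in the testis libraries, 3297, 1701 and 1413 in epididymis and 7507, 5769 and 10268 in brain. Brain lay above the overlapping testis and epididymis libraries. Cst3 passed the limma test with a log2 difference of -1.78 for testis minus brain (SE 0.41, 95% interval -2.64 to -0.92, adjusted p = 0.0090) and -1.94 for epididymis minus brain (SE 0.41, 95% interval -2.80 to -1.07, adjusted p = 0.011). Cst3 did not pass with 0.16 for testis minus epididymis (adjusted p = 0.89). The Cst3 call in testis against brain was lost without testis replicates 1 or 2 or brain replicate 3 (adjusted p = 0.051 to 0.057), and with both stand-apart libraries left out (adjusted p = 0.067). The Cst3 call in epididymis against brain was lost without epididymis replicates 2 or 3 or brain replicate 3 (adjusted p = 0.055 to 0.068).

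Levels can be compared between genes only per length, here as normalised reads per kilobase of the gene's merged exons. On that scale the order of organ means began with Psap, Ctss, Lyz2, Cst3 and Grn in testis, with Psap, Ctss, Grn, Lyz2 and Cst3 in epididymis and with Ctss, Cst3, Psap, Grn and Laptm5 in brain. Manba was lowest in testis and brain, and Tfeb in epididymis. Lyz2 stood at 2528 per kilobase in testis (SD 1315) and 216 in brain (SD 95.2). Psap stood at 7153 per kilobase in testis (SD 539), 10102 in epididymis (SD 679) and 5643 in brain (SD 1116). In brain Cst3 stood at 6199 (SD 1792) and Ctss at 6419 (SD 900.2). The genes were measured in the same libraries, and the order of the 3 leading genes there was not tested. Exons of 9 of the 38 genes overlap another gene's exons, and the library kit does not mark the strand. Counted with the other gene that shares most bases, the overlaps are 10 bases for Ctsz, 68 for Grn, 129 for Ppt1, 165 for Glb1, 249 for Lamp1, 255 for Hexa, 495 for Ctsa, 808 for Ctsd and 1742 for Ctsl. Ctsa and Ctsl each overlap 2 other genes.

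Further lysosomal genes outside the set were tested in the same fit, and values in brackets here are limma log2 differences. Of 107 tested, 8 passed in testis against epididymis, all lower in testis (7.48%), against 4.39% of all tested genes called and 1.9% lower, with a median log2 difference of -0.08 against 0.10 over all genes. Hydrolases and activators gave 5 of 33, led by Pla2g15, a phospholipase (-2.13, SE 0.34, adjusted p = 0.0020), and Sgsh, a sulfatase of heparan sulfate (-1.88, SE 0.46, adjusted p = 0.031). Pla2g15 had 129, 208 and 232 normalised reads in the testis libraries, 1144, 534 and 868 in epididymis and 862, 529 and 919 in brain. Membrane proteins and transporters gave 1 of 25, the nucleoside transporter Slc29a3 (-1.93, SE 0.25, adjusted p = 0.00040). Cd68, a macrophage lysosomal glycoprotein, did not pass in any comparison, and had 72.5, 149 and 118 normalised reads in testis, 151, 160.4 and 239 in epididymis and 87.4, 47.9 and 153 in brain. None of 19 genes of mTORC1 and MiT/TFE control, 15 of mannose 6-phosphate sorting and 3 cystatins passed by limma in testis against epididymis. In that comparison 4, 5 and 0 of them had an unadjusted p below 0.05, and so did 2060 of all 11766 tested genes. For Pla2g15 the call in testis against epididymis was lost with both stand-apart libraries left out (adjusted p = 0.057). For Sgsh the call in testis against epididymis was lost without testis replicate 2 or epididymis replicates 1, 2 or 3 (adjusted p = 0.051 to 0.11) and with both stand-apart libraries left out (adjusted p = 0.12). Of the 8 calls, that of Slc29a3 alone passed without a variance trend.

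In testis against brain 4 of the 107 were higher and 14 lower by limma (16.8% in all), against 6.82% and 4.83% of all tested genes (11.7%). Among hydrolases and activators 3 of 33 were higher in testis (Plbd1, Fuca1 and Gm2a) and 5 lower, led by Pla2g15 and Acp2. Plbd1 had 324, 392 and 719.8 normalised reads in the testis libraries, 263, 210.1 and 298 in epididymis and 0, 16.7 and 0 in brain. Plbd1, a phospholipase B-like hydrolase, thus had reads in 1 brain library only. Fuca1, alpha-fucosidase, differed by 1.25, SE 0.27, adjusted p = 0.0059, and Gm2a, the activator protein of GM2 degradation, by 1.19, SE 0.31, adjusted p = 0.021. Transporters gave 3 of 25, all lower in testis: Slc29a3 (-1.73, SE 0.25, adjusted p = 0.00020), the cholesterol transporter Npc1 (-1.63, SE 0.46, adjusted p = 0.031) and Slc15a4 (-1.32, SE 0.31, adjusted p = 0.011). Rptor, the mTORC1 scaffold raptor, was lower in testis (-2.13, SE 0.42, adjusted p = 0.0031), 1 of 19 in its list. Of 15 sorting genes, Sort1, which encodes the sorting receptor sortilin, was lower in testis (-5.03, SE 0.87, adjusted p = 0.0011) and Vps26a, a retromer subunit, higher (1.55, SE 0.42, adjusted p = 0.025). Sort1 had 3.11, 18.6 and 23.1 normalised reads in the testis libraries, 129, 22.5 and 80.9 in epididymis and 502, 283 and 468 in brain. For Gm2a the call in testis against brain was lost without testis replicates 1, 2 or 3 or brain replicates 1 or 2 (adjusted p = 0.0504 to 0.10). For Npc1 the call in testis against brain was lost without testis replicates 1 or 3 or brain replicates 1, 2 or 3 (adjusted p = 0.080 to 0.12) and with both stand-apart libraries left out (adjusted p = 0.14). For Slc15a4 the call in testis against brain was lost without brain replicate 2 (adjusted p = 0.051). For Vps26a the call in testis against brain was lost without testis replicates 2 or 3 or brain replicates 1 or 2 (adjusted p = 0.055 to 0.10). Without a variance trend, Plbd1, Sort1, Slc29a3, Acp2 and Pla2g15 passed.

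In epididymis against brain 4 of the 107 were higher and 1 lower by limma (4.67%), a share close to the 4.79% of all tested genes, so the count is not a result about the list. Plbd1 and Gm2a were higher in epididymis (Gm2a 1.54, SE 0.31, adjusted p = 0.0092), as were the transporter Slc15a3 (1.10, SE 0.26, adjusted p = 0.022) and the sorting receptor Sorl1 (1.23, SE 0.32, adjusted p = 0.042). Cd164, a sialomucin of endosomes and lysosomes, was lower (-2.87, SE 0.55, adjusted p = 0.0061). The values of Cd164 were 100, 34.7 and 23.7 in epididymis and 351, 253 and 391 in brain, beside 129, 179 and 255 normalised reads in testis. For Gm2a the call in epididymis against brain was lost without epididymis replicate 3 or brain replicate 2 (adjusted p = 0.0503 to 0.053) and with both stand-apart libraries left out (adjusted p = 0.064). For Slc15a3 the call in epididymis against brain was lost without epididymis replicates 2 or 3 or brain replicate 1 (adjusted p = 0.077 to 0.13) and with both stand-apart libraries left out (adjusted p = 0.062). For Sorl1 the call in epididymis against brain was lost without testis replicates 2 or 3 or epididymis replicates 1, 2 or 3 or brain replicates 1, 2 or 3 (adjusted p = 0.053 to 0.17) and with both stand-apart libraries left out (adjusted p = 0.065). Without a variance trend, Plbd1 and Cd164 passed and the other 3 did not.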

How the data were processed

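RNA sequencing libraries of sorted macrophages from testis, epididymis and brain were grouped by the tissue label, 3 per organ. The deposited signal values were made by the authors from reads per gene, each library scaled by 1 factor of its own; CASAVA 1.8, Bowtie2 2.2.1, Partek 6.6, DESeq2 and the mm10 genome are named per the submitters' processing notes, while neither each tool's role nor the counting rule is stated there. Of the values, 100% were whole multiples of the library's smallest value above 0 (tolerance 1e-06), so whole reads were recovered for the count tests.

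Tested were the 11766 of 15434 genes that reached a value of 10 in 3 or more libraries, as log2(value + 1) with limma 3.58.1 in R 4.3.3, with 1 mean per organ over all 9 libraries, a variance trend, 6 residual and 9.08 prior degrees of freedom, and Benjamini-Hochberg adjustment. A log2 difference on this scale compares means of log values, so for genes at or near 0 in a library it can lie well above or below the log2 ratio of the mean reads. The procedure was tested on simulated data. The count tests edgeR 4.0.16 (quasi-likelihood) and DESeq2 1.42.0 on the recovered reads, other pseudocounts, filters and scalings, and leaving out libraries were alternatives. Called genes numbered 373, 1050 and 463 by edgeR in testis against epididymis, testis against brain and epididymis against brain.

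Members and lists were chosen with earlier results of these data known. Named were all members, up to 3 called genes of each further list per direction and comparison with the largest absolute log2 difference and a mean of at least 110 in the higher organ, and Cd68, apart from genes not reported here. Atp6v0b was named outside that rule, after its values were seen. Near copies were sought with blastn 2.17.0 in GENCODE M21 transcripts. Promoter windows came from RefSeq on GRCm38.p6, and the first transcribed bases of 38 of 43 windows occurred in a GENCODE transcript of the gene.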

Additional observations from a re-analysis of the deposited data

How the results depend on the processing

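The number of lysosomal genes called, 8 in testis against epididymis, 14 in testis against brain and 8 in epididymis against brain, was most reduced without a variance trend, to 1, 5 and 1. Leaving out testis replicate 1 and epididymis replicate 3 together, an alternative chosen after seeing the data, gave 4 in testis against epididymis and 4 in epididymis against brain. edgeR on the recovered reads gave 9 in testis against brain and 5 in epididymis against brain. In the latter comparison equal totals and TMM scaling each gave 5 (3 higher and 2 lower), and only the 6 libraries compared gave 5 with the split turned to 2 higher and 3 lower. Leaving out 1 library at a time gave 6 to 9 in testis against epididymis, 7 to 13 in testis against brain and 2 to 7 in epididymis against brain. The count fell by over 1.5 times in testis against brain without testis replicate 1 (8) or 2 (7) or brain replicate 1 (8) or 3 (8). In epididymis against brain it did so without epididymis replicate 1 (4), 2 (2) or 3 (3) or brain replicate 1 (4), 2 (3) or 3 (5).

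Over all tested genes, 516 were called in testis against epididymis, with 192 without a variance trend, 250 with only the 6 libraries compared, 782 by DESeq2 and 278 to 442 leaving out 1 library (301 without testis replicate 2, 278 and 293 without epididymis replicates 2 and 3). In testis against brain 1371 were called, with 837 without a trend and 827 to 1457 leaving out 1 library (827 and 889 without brain replicates 1 and 2). In epididymis against brain 564 were called, with 306 without a trend, 904 by DESeq2 and 320 to 597 leaving out 1 library (320 and 327 without brain replicates 1 and 2). No called lysosomal gene changed sign under these alternatives. The same alternatives were run on the further lysosomal genes with a call, a step added after seeing the data, and none of those calls changed sign. edgeR ended the calls of Atp6v0a1 in testis against epididymis, Npc1 and Atp6v0a2 in testis against brain (DESeq2 too) and Sorl1 in epididymis against brain. Equal totals ended those of Gm2a and Vps26a in testis against brain and of Sorl1. Fitting only the 6 libraries compared ended those of Sgsh, Acp2, Dnase2a, Atp6v0a1 and Tcirg1 in testis against epididymis, Npc1 and Atp6v0a2 in testis against brain, and Gm2a, Slc15a3 and Sorl1 in epididymis against brain. Where counts fell with libraries left out, fewer samples were fitted; otherwise the cause was not tested. No paired analysis was possible because the labels give no replicate number shared between organs. With 3 libraries an organ, low genes such as Manba, Naglu, Tfeb and Atp6v0d1 had intervals several log2 units wide, and a difference that did not pass was not shown to be absent.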

Other observations

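Within each organ, lysosomal genes tended to be highest in the same library. Among testis libraries, replicate 3 was the highest for 19 of the 38 genes (50.0%), against 34.6% of all tested genes. Among epididymis libraries, replicate 1 was the highest for 24 (63.2%), against 35.8%, and among brain libraries replicate 3 for 23 (60.5%), against 34.3%. The 38 genes share these libraries and are not independent of each other, and no test was made.

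The spread between libraries of an organ differed by gene. The median SD of log2(normalised reads + 1) over the 38 genes was 0.41 in testis, 0.39 in epididymis and 0.32 in brain, against 0.79, 0.86 and 0.59 over all tested genes. Genes were not matched by level for these medians, and the part of level in the lower spread was not tested. Hexa in testis (0.07), Scarb2 in epididymis (0.03) and Grn in brain (0.05) had the smallest SD of the set in their organ, and Naglu in testis (3.38), Gaa in epididymis (2.58) and Lgmn in brain (0.96) the largest.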
